A study of Mus musculus with 12 samples.

Results

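The citric acid cycle enzymes described here are the products of 9 genes, Cs, Idh2, Idh3a, Idh3b, Idh3g, Ogdh, Suclg1, Fh1 and Mdh2. They were taken as every probe set of the array whose platform annotation named exactly 1 of these genes, which gave 20 of 34958 single-gene probe sets and 9 of 18194 genes with such a probe set. RNA came from the gastrocnemius, the large calf muscle, of 12 male mice of lines bred for high voluntary wheel running, taken from generation 37 when they were on average 84 days old (79 to 86 days). There were 6 mini-muscle mice of line 3, a phenotype in which the hindlimb muscles are inherited small, and 6 regular-muscle mice of line 8. The mini-muscle RNA was a pool of the left and right muscle of each animal, and the regular-muscle RNA came from 1 limb of each animal, so that phenotype, line and pooling cannot be told apart in any difference below.

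The citric acid cycle is the mitochondrial ring of reactions that oxidises acetyl groups from carbohydrate, fat and amino acids and passes the electrons to the respiratory chain as NADH and reduced flavin. Oxidative muscle fibres hold more mitochondria than glycolytic fibres, and citrate synthase activity is a common measure of their oxidative capacity. Isocitrate is oxidised by 2 kinds of mitochondrial enzyme, the NAD-linked IDH3, which is built from alpha, beta and gamma subunits and is regulated by the energy state of the cell, and the NADP-linked IDH2, which produces NADPH.

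In mini-muscle, transcripts of 3 of the 9 enzymes rose and 0 fell. Idh2 was 1.92-fold higher, Fh1 1.45-fold and Ogdh 1.32-fold, and for each of them every mini-muscle array lay above every regular-muscle array. The subunits of IDH3, the enzyme that shares its substrate with IDH2, did not pass the test, nor did the brightest probe sets of Cs, Suclg1 and Mdh2. Values are log2 MAS5 intensities of the brightest probe set of each gene, differences are mini-muscle minus regular-muscle, n = 6 arrays per group throughout, and a gene was called at a limma Benjamini-Hochberg adjusted p under 0.05 over the 9097 genes above the dim limit, a log2 intensity of 8.56. All 9 genes passed that limit. Among all 9097 genes, 14.9% were called higher and 11.8% lower, 26.7% in all, and 13.0% had no overlap between groups. The median difference of the 9 genes was 0.03, the same to 2 decimals as that of all tested genes (0.03).

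**Figure D1:**
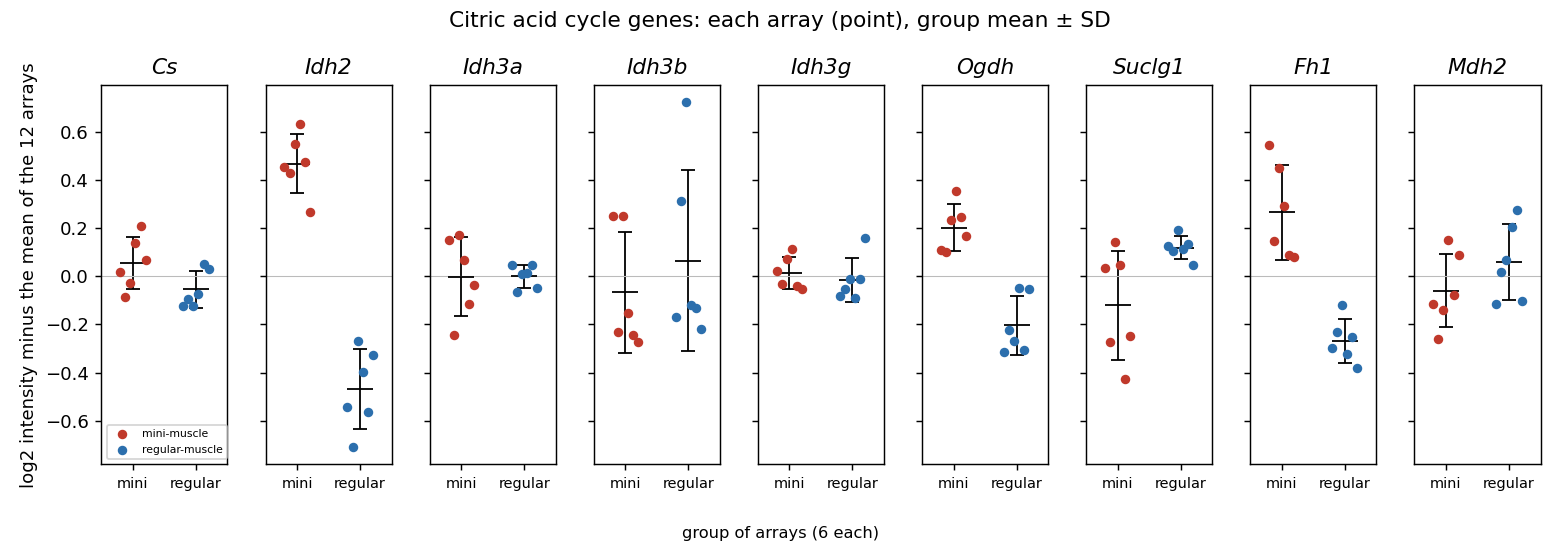
Log2 intensity of the brightest probe set of each gene, centred on its mean over the 12 arrays (y axis, log2 units), in mini-muscle (left in each panel) and regular-muscle arrays (right). Points are arrays and bars are group means with SD (n = 6). The groups do not overlap for Idh2, Ogdh and Fh1, and the mini-muscle arrays of Suclg1 spread more widely (SD 0.23) than the regular-muscle arrays (SD 0.05).

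The promoters of the 3 called genes are shown because these genes rose together in mini-muscle. Each is the stretch from 250 bases before to 50 bases after an annotated transcription start, from RefSeq (GRCm38.p6), printed 5′ to 3′ on the gene's strand, with capitals marking matches to motifs searched on both strands. The motifs were AAGGTCA, an element of oestrogen-related and other nuclear receptors, GGGCGG, the GC box of SP1, CACGTG, an E-box, and the NRF1 palindrome. Idh2 lies on the minus strand at chr7:80115301-80115600, Fh1 on the minus strand at chr1:175625586-175625885, and the Ogdh window with the most matches of its 6 annotated starts, chosen after the matches were counted, on the plus strand at chr11:6291920-6292219.
Idh2: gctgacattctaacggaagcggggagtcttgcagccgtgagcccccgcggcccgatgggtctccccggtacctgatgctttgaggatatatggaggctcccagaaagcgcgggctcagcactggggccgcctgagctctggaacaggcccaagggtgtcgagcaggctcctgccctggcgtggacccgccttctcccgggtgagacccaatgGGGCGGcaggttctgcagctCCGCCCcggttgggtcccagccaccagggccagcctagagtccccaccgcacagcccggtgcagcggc
Fh1: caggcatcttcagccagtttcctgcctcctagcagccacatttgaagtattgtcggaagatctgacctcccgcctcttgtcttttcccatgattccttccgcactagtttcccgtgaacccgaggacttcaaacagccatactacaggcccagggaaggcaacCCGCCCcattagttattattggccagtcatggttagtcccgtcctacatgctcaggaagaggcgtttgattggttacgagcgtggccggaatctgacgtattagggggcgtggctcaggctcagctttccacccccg
Ogdh: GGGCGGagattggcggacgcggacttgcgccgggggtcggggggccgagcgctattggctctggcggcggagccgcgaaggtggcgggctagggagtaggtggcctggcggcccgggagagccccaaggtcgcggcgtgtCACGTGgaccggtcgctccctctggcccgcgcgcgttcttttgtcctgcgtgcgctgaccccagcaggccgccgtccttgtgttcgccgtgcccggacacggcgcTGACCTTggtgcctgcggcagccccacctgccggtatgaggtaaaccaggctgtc
A GC box was found in all 3 sequences, and in 35.7% of all 32851 promoter windows of that length in the table. Since the Ogdh window was picked for its matches, the shares of all windows are no like measure for it. Not every Ogdh window had a GC box, and AAGGTCA was found only in the one shown. AAGGTCA was found in the Ogdh window on its minus strand, spanning the start itself, and in 4.72% of all windows. CACGTG was found in that window too, and in 7.15% of all windows, whereas the NRF1 palindrome was found in none of the 3 and in 0.971% of all windows. The promoter table held 8 of the 9 genes and not Idh3a. Among the genes that were not called, Cs and Mdh2 also had a GC box and no match was found for Idh3b, Idh3g and Suclg1. A match is a string of letters and not evidence of binding.

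Idh2, the mitochondrial NADP-linked isocitrate dehydrogenase, had the largest difference of the 9 genes. Its log2 intensity was 14.27 to 14.64 in mini-muscle (median 14.47), against 13.30 to 13.74 in regular muscle (median 13.54). In linear units the medians were 22726 in mini-muscle and 11897 in regular muscle, and the lowest mini-muscle array (19801) was above the highest regular-muscle array (13654). The difference was 0.94 (SE 0.08, 95% interval 0.76 to 1.11, limma adjusted p = 2.6e-07), and 97.7% of all tested genes had a smaller difference. The gene has a second probe set below the dim limit, at 7.86 ± 0.56 in mini-muscle and 8.37 ± 0.53 in regular muscle (SD), whose groups overlapped. That dim probe set differed by -0.52 (SE 0.33, limma adjusted p = 0.45 over all single-gene probe sets). Averaging it with the bright one left a difference of 0.21 (limma adjusted p = 0.36). The 2 probe sets changed unequally, by 1.45 (two-sided exact permutation p = 0.0043, adjusted p = 0.016 over 11 contrasts within genes, chosen after the data were seen). The rise of Idh2 therefore holds for its bright probe set.

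The difference of Idh2 was set beside that of each of the other 8 genes as a description, with no test, since Idh2 was singled out for having the largest. For each pair the within-array difference of the log2 intensities was compared between groups, which cancels the scaling of an array. Against the IDH3 subunits the excess of Idh2 was 0.94 (SE 0.10) for Idh3a, 1.07 (SE 0.18) for Idh3b and 0.91 (SE 0.07) for Idh3g, and in each case the groups did not overlap. The smallest excess was over Fh1, at 0.40 (SE 0.11), where the groups overlapped. When every probe set of a gene was averaged, dim ones included, the excess was -0.32 over Fh1 and -0.035 over Cs.

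The alpha, beta and gamma subunits of the NAD-linked enzyme were measured by 9 probe sets, of which 0 passed. Idh3a, the catalytic subunit, was at 14.92 to 15.33 in mini-muscle (median 15.18), against 15.10 to 15.21 in regular muscle (median 15.17). The regular-muscle range lay inside the mini-muscle range. Its difference was -0.0019 (SE 0.07, 95% interval -0.15 to 0.15, limma adjusted p = 0.99). The other 3 probe sets of Idh3a gave -0.09, -0.22 and -0.25, of which the lowest limma adjusted p over all single-gene probe sets was 0.19.

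Idh3b, a regulatory subunit, was the most variable of the 9 genes. Its values were 14.12 to 14.65 in mini-muscle (median 14.20), against 14.18 to 15.12 in regular muscle (median 14.27). The high values were those of mini-muscle replicates 1 and 3 (both 14.65) and regular-muscle replicates 3 (15.12) and 2 (14.71), and the groups overlapped. The difference was -0.13 (SE 0.15, 95% interval -0.44 to 0.18, limma adjusted p = 0.56). This probe set is of the _s_at class, whose probes can match several transcripts. A dimmer probe set of the gene differed by 0.29 (SE 0.15, limma adjusted p = 0.30 over all single-gene probe sets) and the dimmest by -0.13. Idh3g, the other regulatory subunit, was at 14.94 to 15.11 in mini-muscle (median 14.99), against 14.91 to 15.16 in regular muscle (median 14.97). Its difference of 0.03 had a 95% interval of -0.10 to 0.16 (limma adjusted p = 0.79), and its second probe set gave -0.03.

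Ogdh encodes the first component of the oxoglutarate dehydrogenase complex, which releases carbon dioxide and makes succinyl-CoA. Its brightest probe set was at 14.19 to 14.44 in mini-muscle (median 14.29), against 13.77 to 14.04 in regular muscle (median 13.84), with no overlap of the groups. The difference was 0.41 (SE 0.07, 95% interval 0.25 to 0.56, limma adjusted p = 3.7e-04). Its second probe set, far below the dim limit, went the other way, at 4.47 to 6.77 in mini-muscle (median 5.90), against 7.27 to 8.48 in regular muscle (median 7.45). Those groups did not overlap either, and the difference was -1.82 (SE 0.52, limma adjusted p = 0.032 over all single-gene probe sets), a call lost in 7 of 12 fits without 1 array. With the offset of 64 added to the intensities it was -1.08 (SE 0.28, limma adjusted p = 0.017). The 2 probe sets changed unequally (two-sided exact permutation p = 0.0022, the smallest that the 924 divisions of the arrays can give, adjusted p = 0.012 over 11 such contrasts within genes, chosen after the data were seen), and a mean of both gave -0.70 for the gene (limma adjusted p = 0.019). The direction of Ogdh therefore holds for its bright probe set.

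Fh1 encodes fumarase, which hydrates fumarate to malate in the mitochondrion and also acts in the cytosol. Its probe set was at 15.03 to 15.50 in mini-muscle (median 15.17), against 14.57 to 14.83 in regular muscle (median 14.67). Every mini-muscle array was above every regular-muscle array. The difference was 0.53 (SE 0.08, 95% interval 0.36 to 0.71, limma adjusted p = 1.1e-04). The gene has 1 probe set, and its call held in all 21 alternative settings, with differences of 0.48 to 0.57.

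Suclg1, the alpha subunit of succinyl-CoA ligase, which makes a nucleoside triphosphate directly in the cycle, was at 14.13 to 14.70 in mini-muscle (median 14.45), against 14.60 to 14.75 in regular muscle (median 14.67). In 4 mini-muscle arrays it lay below the lowest regular-muscle array and in the others within the regular-muscle range. The difference was -0.24 (SE 0.09, 95% interval -0.42 to -0.06) and did not pass (limma adjusted p = 0.0505). It passed without mini-muscle replicate 1 (-0.27, limma adjusted p = 0.038), without replicate 3 (-0.29, adjusted p = 0.014) and without replicate 4 (-0.27, adjusted p = 0.037), and had limma adjusted p of 0.058 to 0.13 in the fits without 1 of the other arrays. It also passed among the brightest genes (adjusted p = 0.041) and with the offset of 64 (adjusted p = 0.0498). In 15 of the 21 alternatives it did not pass. Among these, the limma adjusted p was 0.069 with quantile normalization and 0.097 with no filter on dim genes. It was 0.075 with the mean of every probe set and 0.25 with median centring.

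Citrate synthase, Cs, which joins acetyl-CoA to oxaloacetate at the entry of the cycle, was read by 3 bright probe sets that gave different sizes. The brightest was at 15.36 to 15.65 in mini-muscle (median 15.49), against 15.32 to 15.50 in regular muscle (median 15.36), with 3 mini-muscle arrays above the regular-muscle range. Its difference of 0.11 did not pass (SE 0.06, 95% interval -0.03 to 0.24, limma adjusted p = 0.23). The dimmest was at 13.34 to 13.83 in mini-muscle, against 13.08 to 13.33 in regular muscle, with no overlap. It rose by 0.41 (SE 0.08, limma adjusted p = 0.0034 over all single-gene probe sets), and the middle one by 0.22 (SE 0.07, limma adjusted p = 0.042), a call that was lost in 10 of 12 fits without 1 array. With median centring neither call held (limma adjusted p = 0.051 and 0.34), nor did either without the trend (0.072 and 0.24). The difference in size between the brightest and the dimmest had exact permutation p = 0.015 (adjusted p = 0.042 over the 11 contrasts). With the mean of its 3 probe sets the gene rose by 0.25 (limma adjusted p = 0.00705).

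Mdh2, the mitochondrial malate dehydrogenase, which regenerates oxaloacetate, was read by 2 very bright probe sets that went opposite ways. The brighter was at 15.92 to 16.33 in mini-muscle (median 16.08), against 16.06 to 16.45 in regular muscle (median 16.22), and differed by -0.12 (SE 0.08, limma adjusted p = 0.33). The other was at 16.00 to 16.30 in mini-muscle (median 16.18), against 15.60 to 16.03 in regular muscle (median 15.81), with 5 mini-muscle arrays above the regular-muscle range. It rose by 0.33 (SE 0.08, limma adjusted p = 0.016 over all single-gene probe sets), a call lost with median centring (0.23) and without the trend (0.14). The contrast between the probe sets was -0.45, with no overlap of the groups (exact permutation p = 0.0022, adjusted p = 0.012 over the 11 contrasts). No direction is given for the Mdh2 transcript for that reason.

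Counted over all 20 probe sets, 6 were called higher and 1 lower in the fit of all 34958 single-gene probe sets, of which 5.00% were called higher and 3.91% lower (8.92% in all). The groups did not overlap for 5 of the 20, against 5.46% of all. The 6 were 1 each of Idh2, Fh1, Ogdh and Mdh2 and 2 of Cs. Of the 20, 18 lay above the dim limit, against 14388 of all 34958. The shares over all probe sets are therefore those of a dimmer set. Among the 9097 genes above that limit, 14.9% were called higher, 11.8% lower and 13.0% did not overlap. The 1 called lower was the dim Ogdh probe set. Probe sets of 1 gene share its transcripts and are not independent.

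**Figure D2:**
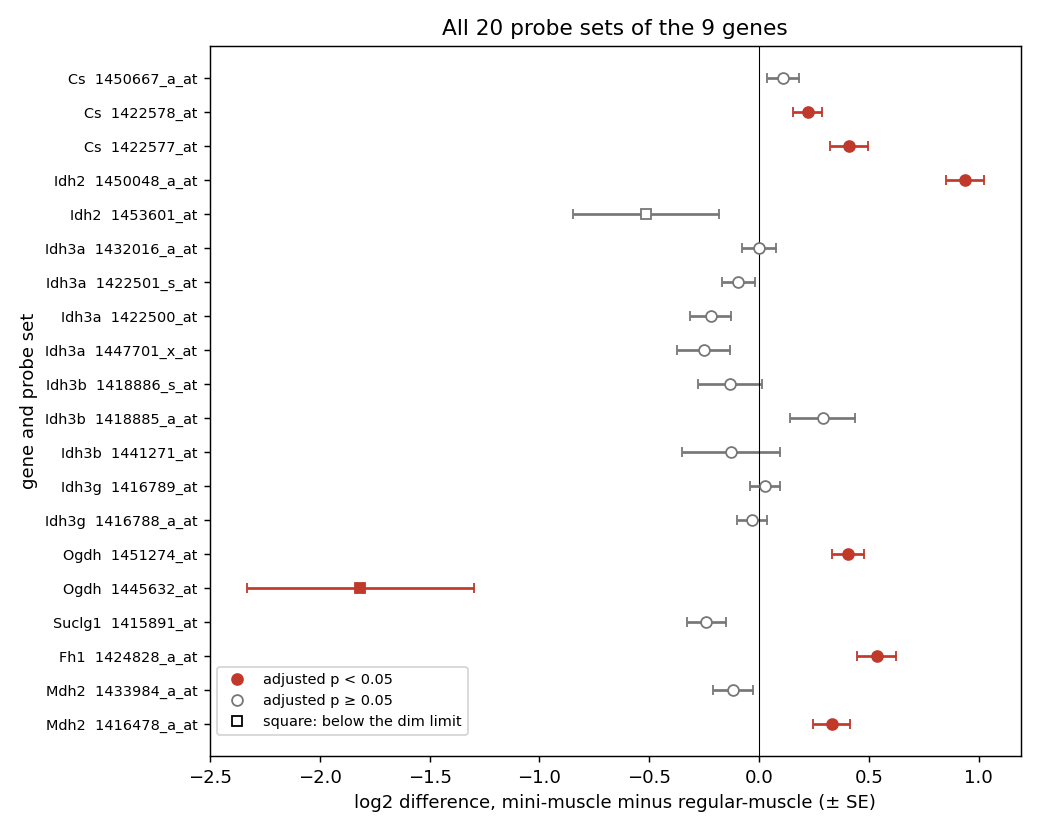
Log2 difference between mini-muscle and regular-muscle arrays (x axis, mini-muscle minus regular-muscle, with SE) for each of the 20 probe sets, ordered by gene and brightness (y axis). Filled points passed limma at an adjusted p under 0.05 and squares lie below the dim limit of 8.56. The probe sets of Idh2, Idh3b, Idh3g, Ogdh and Mdh2 lie on both sides of 0.

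The 9 genes did not vary as 1 unit among the arrays of a group. Among mini-muscle arrays, Fh1 was 15.50, 15.40 and 15.24 in replicates 1, 3 and 4, and 15.03 to 15.09 in the other arrays. Suclg1 was 14.59, 14.70 and 14.60 in the same 3 replicates and 14.13 to 14.30 in the others, and Idh3a was 15.23 to 15.33 against 14.92 to 15.12. Idh2, by contrast, was 14.46, 14.56 and 14.64 in those replicates and 14.27 to 14.48 in the others, and Cs was higher in replicate 5 (15.65) than in any of them. After subtraction of the group means, Pearson correlations over the 12 arrays, given as a description, were 0.85 between Suclg1 and Fh1, 0.84 between Idh3a and Suclg1, 0.80 between Idh3b and Fh1 and 0.74 between Idh3a and Fh1. Idh3b had 0.55 with Suclg1 and 0.39 with Idh3a. For Idh2 the closest members were Idh3g (0.59) and Ogdh (0.52). All points share array scaling and RNA quality.

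Of the 2 ratios that reflect RNA quality, the actin ratio moved with that spread among mini-muscle arrays only, and the Gapdh ratio did not. The log2 ratio of the 3′ over the 5′ actin control probe set was -0.65, -0.73 and -0.76 in mini-muscle replicates 1, 3 and 4, and 0.02, -0.44 and -0.23 in replicates 2, 5 and 6. In regular muscle it ranged over -0.61 to 0.02. Its lowest value there, in regular-muscle replicate 6, went with the lowest Fh1 (14.57) and Suclg1 (14.60) of that group. The Gapdh ratio was -0.14, -0.09 and -0.16 in mini-muscle replicates 1, 3 and 4, among the -0.10, -0.12 and -0.19 of replicates 2, 5 and 6. Between the groups the actin ratio differed by -0.20 (exact permutation p = 0.24). The Gapdh ratio differed by 0.08 (exact permutation p = 0.013, adjusted p = 0.039 over 3 array measures). Median intensities overlapped, at 213.0 to 275.2 in mini-muscle and 211.9 to 274.4 in regular muscle (exact permutation p = 0.89). With the actin ratio as a covariate, chosen after the data were seen, Idh2, Fh1 and Ogdh were still called, and Suclg1 was called lower (-0.30, limma adjusted p = 0.019). The part of RNA quality in the spread among mini-muscle arrays was not tested further.

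**Figure D3:**
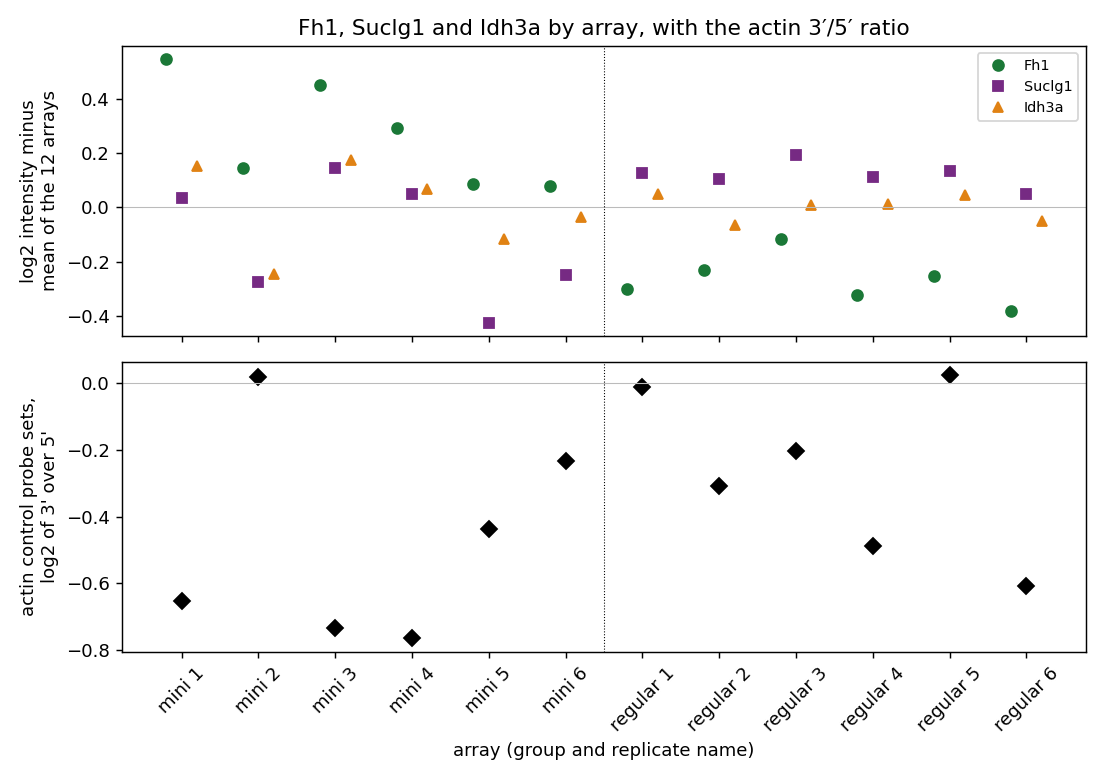
Upper plot, log2 intensity centred on the mean of the 12 arrays (y axis, log2 units) of Fh1 (circles), Suclg1 (squares) and Idh3a (triangles) on each array, with mini-muscle left of the dotted line. Lower plot, log2 ratio of the 3′ over the 5′ actin control probe set on the same arrays. Mini-muscle replicates 1, 3 and 4 are higher in all 3 genes than the other mini-muscle arrays. They have the lowest ratios of their group, -0.76 to -0.65.

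Among the other subunits of the cycle enzymes, 2 of 8 rose and 0 fell (median difference 0.06). Of all 9097 genes, 14.9% were called higher and 11.8% lower, and these shares stand beside the count of each gene list below. Dlst, the succinyl-transferring component of the oxoglutarate dehydrogenase complex and so the partner of Ogdh, rose by 0.38 (SE 0.08, limma adjusted p = 0.0023), at 13.38 ± 0.13 in mini-muscle and 13.00 ± 0.15 in regular muscle (SD). Its other probe set above the dim limit gave 0.43 (limma adjusted p = 0.12 over all single-gene probe sets). Sdha, the flavoprotein subunit of succinate dehydrogenase, rose by 0.30 (SE 0.08, limma adjusted p = 0.0054), while another bright probe set of it gave 0.06 (limma adjusted p = 0.74 over all single-gene probe sets). Both calls were lost with the mean of every probe set (adjusted p = 0.57 for Dlst and 0.16 for Sdha), and that of Sdha with median centring (0.053). The subunits Sucla2, Suclg2, Dld, Sdhb, Sdhc and Sdhd differed by -0.14 to 0.11 and did not pass. Aconitase 2 was not analysed here.

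Enzymes that feed the cycle were examined next. Of 9 tested genes of entry and anaplerosis, 4 rose and 0 fell at their brightest probe sets (median 0.17). Pdhb, a subunit of pyruvate dehydrogenase, gave -0.0082 at its brightest probe set. Its other probe set, also above the dim limit, differed by -0.81 (SE 0.18, limma adjusted p = 0.0062 over all single-gene probe sets). Got2, the mitochondrial aspartate aminotransferase, which interconverts oxaloacetate and aspartate, was at 15.25 ± 0.09 in mini-muscle and 14.51 ± 0.16 in regular muscle (SD) and rose by 0.74 (SE 0.08, limma adjusted p = 1.2e-06). Its second probe set above the dim limit gave 0.77, whereas the mean with its dim probe sets was -0.12 (limma adjusted p = 0.78). Me3, a mitochondrial NADP-linked malic enzyme, rose by 0.61 (SE 0.10, limma adjusted p = 2.0e-04). The acetyltransferase of pyruvate dehydrogenase, Dlat, rose by 0.28 (limma adjusted p = 0.0039) and glutamate dehydrogenase, Glud1, by 0.28 (limma adjusted p = 0.032), a call lost in 4 of 12 fits without 1 array. Of the further bright probe sets of Dlat, 1 gave 0.27 (limma adjusted p = 0.016 over all single-gene probe sets) and another 0.04. The second probe set of Glud1 gave 0.40 (limma adjusted p = 0.0067 in that fit). Neither gene was called with median centring of its brightest probe set (adjusted p = 0.088 for Dlat and 0.13 for Glud1).

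Of 5 tested genes of shuttles and transhydrogenase, 2 rose and 0 fell (median 0.16). Nnt, the inner membrane transhydrogenase that makes NADPH at the expense of the proton gradient, was at 14.49 ± 0.22 in mini-muscle and 13.75 ± 0.11 in regular muscle (SD). It rose by 0.74 (SE 0.09, limma adjusted p = 9.9e-06), and by 0.40 at its second bright probe set, but a mean with its dim probe set gave 0.09 (limma adjusted p = 0.82). Got1, the cytosolic aminotransferase of the malate-aspartate shuttle, rose by 0.62 (SE 0.09, limma adjusted p = 8.3e-05).

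The cytosolic counterparts split. Of 5 tested genes 1 rose and 1 fell (median 0.02). Me1, the cytosolic NADP-linked malic enzyme, was at 11.44 ± 0.24 in mini-muscle and 12.68 ± 0.14 in regular muscle (SD) and fell by 1.24 (SE 0.11, limma adjusted p = 2.2e-07). Its second probe set gave -1.55. Aco1, the cytosolic aconitase and iron regulatory protein, rose by 0.40 (SE 0.10, limma adjusted p = 0.0058), whereas Idh1, Mdh1 and Acly did not pass, at 0.02, 0.27 and 7.5e-04.

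**Figure D4:**
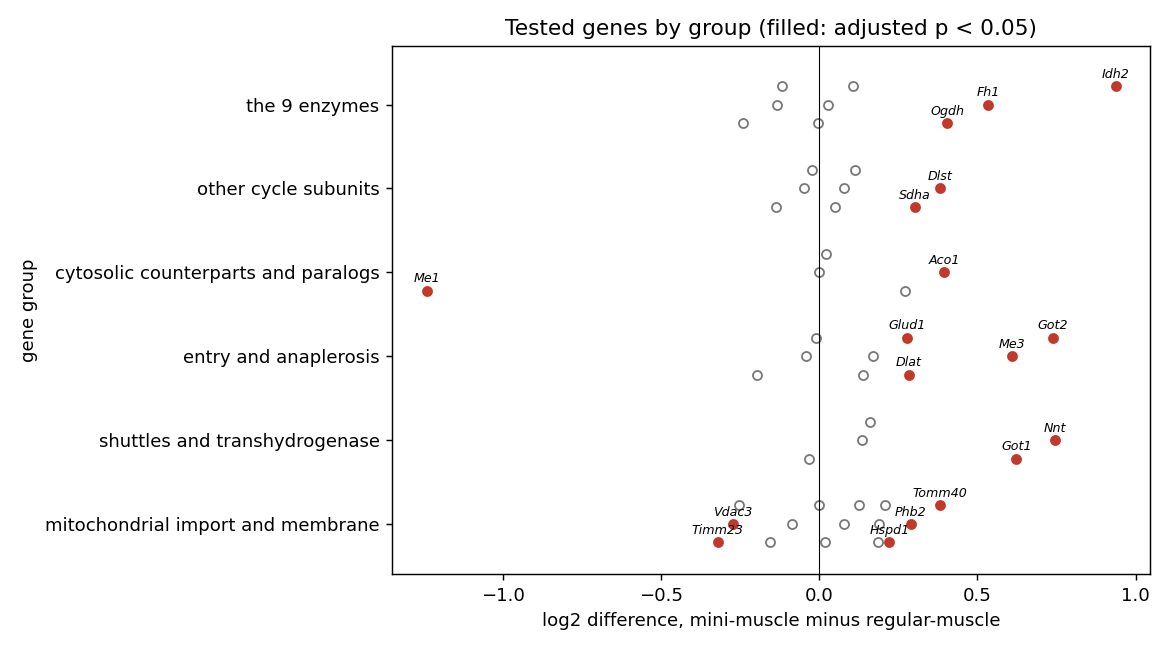
Log2 difference between mini-muscle and regular-muscle arrays (x axis, mini-muscle minus regular-muscle) of each tested gene of 6 groups (y axis), with named, filled points for genes that passed limma at an adjusted p under 0.05. Vertical spread within a group only separates the points. Me1 lies alone at the left (-1.24) and Idh2 has the highest value (0.94).

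The called genes of mitochondrial import and membranes did not share a direction. Of 15 tested genes of this list, 3 rose and 2 fell (median 0.08), against 14.9% higher and 11.8% lower of all tested genes. Timm23, the channel of the inner membrane import machinery, fell by 0.32 (SE 0.07, limma adjusted p = 0.0014), and Vdac3, a porin of the outer membrane, fell by 0.27 (SE 0.06, limma adjusted p = 0.0019). Tomm40, the outer membrane import pore, rose by 0.38 (limma adjusted p = 0.029), prohibitin 2, Phb2, by 0.29 (limma adjusted p = 0.021) and the chaperonin Hspd1 by 0.22 (limma adjusted p = 0.048). Those 3 calls were lost in 5, 3 and 9 of 12 fits without 1 array, and with median centring none of the 5 genes was called (limma adjusted p = 0.074 to 0.23).

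Fibre markers moved with these differences. All 8 slow-fibre markers rose, by 0.50 to 1.18, and their summed intensity was 318200 to 438350 in mini-muscle arrays, against 181620 to 256780 in regular-muscle arrays. Of 9 fast-fibre markers 5 fell and 1, Myh1, rose, and the sum was 1064700 to 1241700 in mini-muscle, against 1302300 to 1582900 in regular muscle. All 10 skeletal muscle markers, 6 of them also fast-fibre markers, were above the dim limit. Of these 10, 4 fell and 1 rose, and their sum was 1193300 to 1410100 in mini-muscle, against 1414700 to 1725700 in regular muscle. In whole muscle, more fibres of a type and more RNA per fibre cannot be told apart, and the part of fibre composition in the rise of Idh2, Fh1 and Ogdh was not tested.

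Markers of other cells moved less uniformly. Of 7 tested fibroblast and matrix genes 4 fell and 0 rose, with a sum of 26178 to 44321 in mini-muscle, against 45508 to 71421 in regular muscle. Of 4 tested macrophage genes 3 fell (sum 3999 to 5408 in mini-muscle, 4555 to 7817 in regular muscle), with Cd68 and Cd163 below the dim limit. Adipocyte genes had 1 of 2 tested higher, Fabp4 (0.31, limma adjusted p = 0.031), whereas Adipoq differed by -0.41 and did not pass (adjusted p = 0.22). Cidec, Lep and Ucp1 were below the dim limit. The adipocyte sum (33429 to 49187 in mini-muscle, 28949 to 41038 in regular muscle) mostly reads Fabp4. Its mean log2 intensity in mini-muscle was 15.24, against 11.09 for Adipoq. Endothelial genes had 1 of 6 higher, near the 14.9% of all tested genes. None of 3 tested Schwann cell genes and of 1 satellite cell gene passed, and all 3 erythroid genes with a probe set were below the limit. Their part in the differences of the cycle enzymes was not tested.

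The genes most like Idh2 were sought among all 9097 by Pearson correlation of the log2 intensities, as a description. Over the 12 arrays they were Tcta (0.98), Coq8a (0.98), a kinase-like protein of coenzyme Q synthesis, Aldh2 (0.98), the mitochondrial aldehyde dehydrogenase, Lims1 (0.97) and Ttc7 (0.97), all higher in mini-muscle by 0.72 to 1.22. After the group means were subtracted, they were Ankzf1 (0.89), Gtf2h5 (0.88), Uqcr10 (0.86), a subunit of respiratory complex III, Slc4a3 (0.86) and 1810058I24Rik (0.84). No gene was in both sets, and each value is the highest of many over few arrays.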

How the data were processed

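Biotinylated cRNA from total RNA of each animal was hybridised to 1 Affymetrix array, 6 mini-muscle and 6 regular-muscle, per the labels' protocols. The deposited values are linear probe set intensities made by the authors with MAS5, per the submitters' processing notes. No MAS5 version or detection call was used here. In the deposited intensities each array's mean without the lowest and highest 2% was 800.0, so arrays had been scaled to 1 target. Arrays have no depth, and their number limits precision. No intensity was 0 or below.

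Intensities were taken to log2 with no offset or further normalization. The brightest probe set stood for a gene, genes under the median of gene means (log2 8.56) were left out, and limma 3.58.1 in R 4.3.3 (lmFit, eBayes with trend, two-sided, Benjamini-Hochberg) compared the groups. A second fit held all 34958 single-gene probe sets. Gene names are those of the platform annotation, and all 9 members matched the RefSeq table (GRCm38.p6). Single values were compared with exact permutation tests. Tested on simulated data for this comparison (9097 genes), 56% of 1.5-fold and 87% of 2-fold changes were called. In that simulation 100 genes changed at each size, whereas 26.7% of all genes were called in the data. The SE was 0.06 to 0.15 among the 9 genes, against a median of 0.14 over all, so these shares are not those of the 9 genes.

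The members, lists and alternatives were chosen with earlier results of these data known. Named genes were all members, called genes of 5 pathway lists (at most 6 a list), called fibre markers and the genes most correlated with Idh2. Some other list genes were also named, among them Pdhb, Fabp4 and Adipoq. Alternatives were quantile normalization, median centring, 2 other dim filters, means of probe sets, an offset of 64, no trend, single arrays left out and, chosen after seeing the data, the actin ratio as a covariate and the mean of the probe sets above the dim limit.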

Additional observations from a re-analysis of the deposited data

Results flagged for a closer look

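Of 40 groups of 6 arrays (20 probe sets, 2 groups each), 3 had 1 array far from the others by Dixon's test, where chance flags about 1 in 20. For the middle Cs probe set, mini-muscle replicate 2 was low, at 14.85, with the other mini-muscle arrays at 14.96 to 15.02. Regular-muscle replicate 6 was high for the brightest Idh3g probe set, at 15.16, with the others at 14.91 to 14.99. For the dim Ogdh probe set, regular-muscle replicate 4 was high, at 8.48, with the others at 7.27 to 7.69. Without these arrays the differences were 0.24 for Cs (limma adjusted p = 0.033), 0.06 for Idh3g (limma adjusted p = 0.72) and -1.64 for Ogdh (limma adjusted p = 0.082, no longer called).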

How the results depend on the processing

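Idh2, Fh1 and Ogdh were called higher under every alternative run, except when every probe set was averaged, where Idh2 gave 0.21 (not called) and Ogdh reversed to -0.70, since dim probe sets enter that mean. There Cs was called instead, so the number of the 9 genes called higher was within 1.5 times of 3 in all alternatives. The number called lower, 0, became 1 with only the brightest genes, the offset of 64 and the actin covariate (Suclg1 in each) and with that average (Ogdh), and was 0 to 1 without 1 array. With the same average, 862 genes were called higher and 681 lower in all, and 0 other cycle subunits were higher. There the values of Idh3b (0.0099), Idh3g (-0.0024), Mdh2 (0.11), Got2 (-0.12), Idh2 minus Cs (-0.035) and Idh2 minus Fh1 (-0.32) changed sign. With the mean of the probe sets above the dim limit, Idh3b (0.0099), Idh3g (-0.0024) and Mdh2 (0.11) changed sign and Cs was also called. Centring arrays on their medians gave 651 genes lower, 1 other cycle subunit higher and 3 of the 20 probe sets higher. Without the trend, 3 probe sets were also called higher. When only probe sets above the median were fitted, 0 were lower, since that filter left out the dim Ogdh probe set (mean log2 6.72). The causes of the other changes were not tested. Idh3a, near 0, changed sign to 0.018 with quantile normalization and 0.0091 with median centring, and Idh3g to -0.0081 with the actin covariate. Without 1 array, genes called higher numbered 1163 to 1321 and lower 928 to 1075, the probe sets 5 to 6 higher and 0 to 2 lower, Idh3a lay between -0.037 and 0.047, and the dimmest Idh3b probe set between -0.25 and 0.01. The median of all genes was 0.03 as deposited, 0.01 after quantile normalization and 0.04 after centring. No paired analysis was possible because the groups were different mice of different lines. The labels give no replicate numbers, so those used here only name arrays.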
